A study of Mus musculus and synthetic construct with 33 samples.

Results

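Heart and skeletal muscle are both striated muscles, built from repeating sarcomeres, but they draw many sarcomere and calcium-handling proteins from different members of the same gene families. The comparison described here set wild-type heart against wild-type hindlimb of mouse embryos and followed 184 genes of 26754 listed. Of these, 56 form 28 families with a cardiac and a skeletal member each, chosen by name from textbook roles. The other members are further isoforms, channels, sarcomere, membrane and energy genes and transcription factors of muscle, also chosen by name.

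The organs came from embryos at E14.5 of the Trp53cor1tm1.1Vlcg strain, which carries a mutation of the long noncoding RNA gene linc-p21 (Trp53cor1), on a mixed 129S6/C57BL/6 background with no Neo cassette. Wild-type (WT) heart and WT hindlimb had 3 libraries each, and so had mutant (KO) heart and KO hindlimb, out of 33 samples in the series. Each library held polyA RNA of an organ from 1 embryo of either sex, and the hindlimb was the whole leg rather than dissected muscle. The authors deposited 1 FPKM value (fragment counts divided by gene length and depth) per gene for each organ and genotype, pooled over the libraries, so no value below has a standard deviation and no difference between the organs has a test. Read depth is not stated. The WT hearts came from 3 litters and the WT hindlimbs from 2 other litters, with 0 litters in common, so organ and litter cannot be told apart. The KO organs, which share 1 embryo, served as another set of libraries for the same comparison.

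In a sarcomere, myosin thick filaments pull on actin thin filaments, and troponin and tropomyosin on the thin filament let this happen when calcium rises. Calcium leaves the sarcoplasmic reticulum through ryanodine receptors and returns through a pump of the SERCA family. Cardiac calcium release is triggered by calcium entering through the membrane channel, whereas in skeletal muscle the channel and the release receptor are coupled mechanically. Before birth, muscles of the limb use embryonic and perinatal myosins and also some isoforms that the adult keeps only in heart or in slow fibres.

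Levels of different genes are compared in FPKM, which is per length. The ratio between the organs was computed as log2((heart FPKM + 0.1)/(hindlimb FPKM + 0.1)) over the 14390 genes at 1 FPKM or more in either organ. Each organ's table was scaled on its own, so the ratio was centred on its median, which lay at -0.22 before centring, hindlimb being 1.16-fold higher. A ratio at 4-fold or more after centring is named higher in that organ, and fold values carry the added 0.1 FPKM, which understates those of low genes. By that rule 760 genes were higher in heart and 1027 in hindlimb, and 10480 lay within 2-fold. With each organ rescaled to the same sum and no centring, these numbers were 641 and 1476, and heart's share of the calls moved from 42.5% to 30.3%. Trp53cor1 was 0.852 FPKM in WT heart and 0.710 FPKM in WT hindlimb, and it is listed at 0 in both KO organs.

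The organs carried the markers of their labels. Myl2, the ventricular regulatory light chain of myosin (ENSMUSG00000013936.6, mm10 chr5:122100951-122113472, plus strand), was 10103 FPKM in WT heart and 4.07 FPKM in WT hindlimb. Mylpf, the fast skeletal regulatory light chain (ENSMUSG00000030672.6, chr7:127211608-127214298, plus strand), was 8.52 FPKM in WT heart and 642 FPKM in WT hindlimb. Both KO organs kept that order, with Myl2 at 11408 FPKM in heart and 1.55 FPKM in hindlimb and Mylpf at 10.3 FPKM in heart and 439 FPKM in hindlimb. Tnnt2, cardiac troponin T (ENSMUSG00000026414.7, chr1:135836386-135852260, plus strand), was 4356 FPKM in WT heart and 92.3 FPKM in WT hindlimb, and thus well above 0 in the limb. Tnnt3, fast skeletal troponin T (ENSMUSG00000061723.11, chr7:142498836-142516009, plus strand), was 4.22 FPKM in WT heart and 104 FPKM in WT hindlimb, 20.7-fold higher in hindlimb.

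The hindlimb also held other tissues. Epidermal keratins were abundant there, with Krt10 at 272 FPKM in WT hindlimb against 1.88 FPKM in WT heart, and 10 of 12 epidermal markers were 4-fold or more higher in hindlimb, against 7.14% of all genes tested. The same held for 13 of 15 markers of cartilage and bone and for 10 of 12 markers of limb and tendon mesenchyme. In heart, 4 of 7 epicardial markers and 4 of 7 smooth muscle markers were 4-fold or more higher, against 5.28% of all genes tested. The smooth muscle ones were Acta2, Cnn1, Tagln and Des, and Des is also on the list of sarcomere genes that both muscles use. Only 5 of the 7 smooth muscle markers were at 1 FPKM or more in either organ. Among endothelial markers, 0 of 10 differed by 4-fold or more in either direction. Of 8 hepatoblast markers, 4 were higher in heart, among them Afp, at 10.3 FPKM in WT heart and 1.71 FPKM in KO heart. In such bulk samples fewer cells of a type and less RNA per cell cannot be told apart. The 56 paired genes made up 5.79% of the summed FPKM in WT heart and 0.648% in WT hindlimb.

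Across the 28 families, more cardiac members were higher in heart than skeletal members were higher in hindlimb when ratios were centred on all genes. Centred on sarcomere genes that both muscles use, described further on, the order was the reverse. There 12 of 28 cardiac members were higher in heart and 20 of 28 skeletal members higher in hindlimb. Most genes moved the same way under that centring, with 13101 of 14390 genes tested higher in hindlimb and 76 in heart. The 20 skeletal members are therefore no excess over all genes. Of the cardiac members, 26 of 28 were 4-fold or more higher in heart, against 5.28% of all genes tested, and 0 were higher in hindlimb. Their median ratio was 4.58 on the log2 scale, or 23.9-fold. Of the skeletal members, 10 of 28 were 4-fold or more higher in hindlimb, against 7.14% of all genes tested, 2 were higher in heart, 12 were neither, and 4 lay below 1 FPKM in both organs. Their median ratio was -1.37, or 2.58-fold towards hindlimb, where the median of all genes tested is 0 by construction. The ratios by family show the cardiac member to the right of its partner in 26 of 28 families, and creatine kinase and calsequestrin were the exceptions. That count does not depend on the centring, since both members are shifted by the same amount. The KO organs gave the same 4-fold call for all 26 cardiac members and for all 12 skeletal members that were called in WT. Most calls over all genes were repeated in KO too, with 669 of 760 heart calls and 937 of 1027 hindlimb calls.

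**Figure D1:**
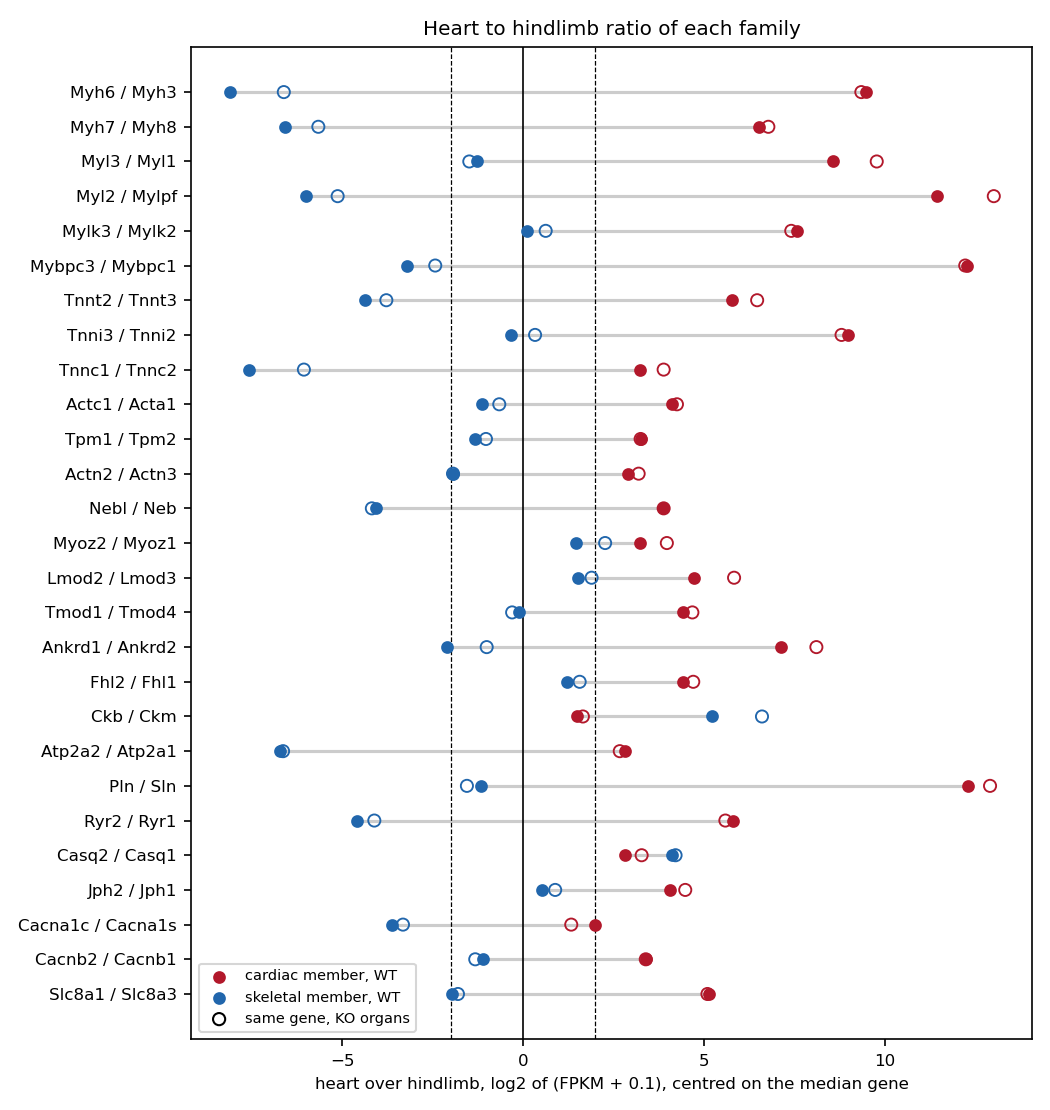
Centred log2 ratio of heart over hindlimb (horizontal axis) for the cardiac (red) and skeletal (blue) member of 27 of the 28 families, named on the vertical axis as cardiac / skeletal, from WT (filled) and KO (open) organs, with dashed lines at 4-fold. Red points lie to the right of blue points except for Ckb / Ckm and Casq2 / Casq1, and 25 of 27 filled red points lie beyond the right dashed line.

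Levels tell the same families apart in another way. The cardiac members ranged from 11.4 to 10103 FPKM in WT heart (median 269) and from 0.03 to 420 FPKM in WT hindlimb (median 6.26). The skeletal members ranged from 0.02 to 223 FPKM in WT heart (median 3.10) and from 0.11 to 642 FPKM in WT hindlimb (median 15.6). Within a family, the share of the cardiac member can be read inside each organ's own table, without any scaling between organs. Its median was 99.2% in WT heart and 52.3% in WT hindlimb, and 99.3% and 54.4% in the KO organs. It passed 90% in 23 families in heart and in 2 in hindlimb, those of alpha-actinin and the muscle ankyrin repeat proteins. It was under 10% in 7 families in hindlimb and in 0 in heart. In 14 families the more abundant form switched from cardiac in heart to skeletal in hindlimb, in 13 the cardiac form was the more abundant in both organs, in 0 the skeletal form was, and in 1, creatine kinase, the switch ran the other way. So the embryonic limb held more of the member labelled cardiac than of its partner in those 13 families. Among them were troponin C, sarcomeric actin, tropomyosin, alpha-actinin, the SERCA pump, calsequestrin and junctophilin. The labels are those of the pair list, and some cardiac members, such as Tnnc1 and Atp2a2, are also forms of slow skeletal muscle. Some of these forms are not limited to muscle: Tpm1 was 353 FPKM in WT hindlimb and 316 FPKM in KO lung, and Atp2a2 was 62.5 FPKM in WT hindlimb, 49.6 FPKM in KO lung and 43.0 FPKM in WT liver.

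**Figure D2:**
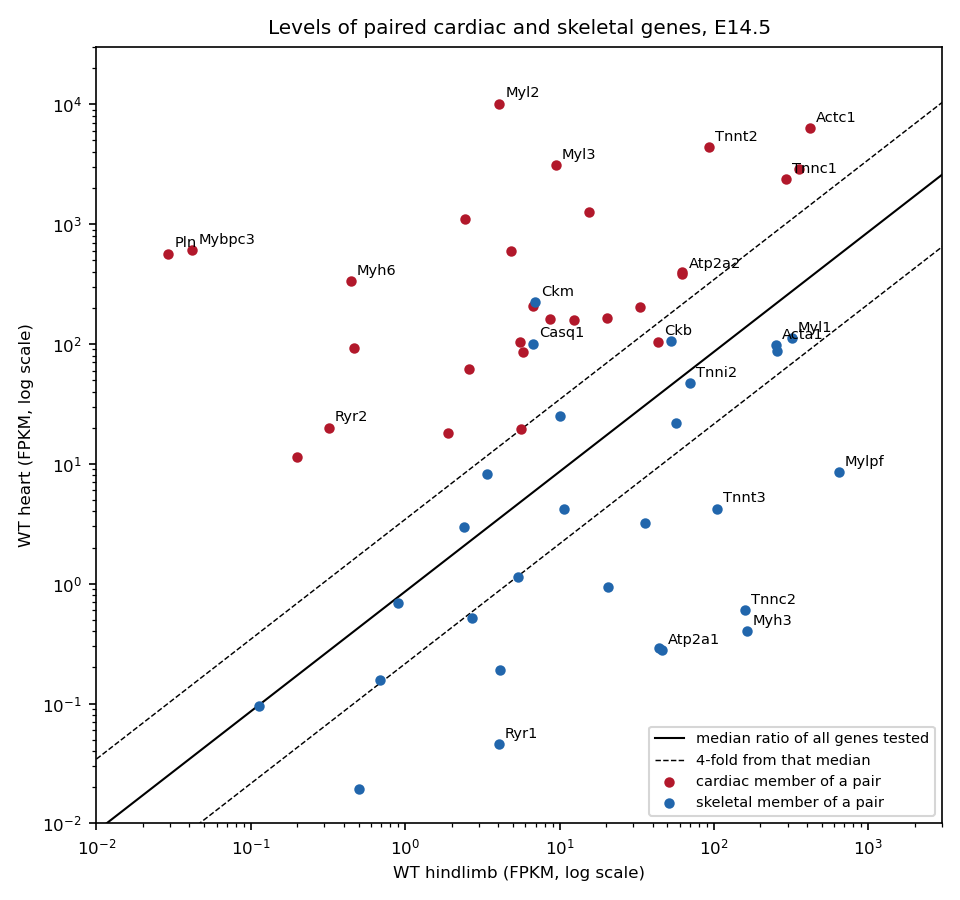
WT heart level (vertical, FPKM, log scale) against WT hindlimb level (horizontal, FPKM, log scale) of the 28 cardiac (red) and 28 skeletal (blue) members, with the median ratio of all genes tested (solid line) and 4-fold on either side of it (dashed lines). Red points lie above the solid line, and blue points spread from Ckm and Casq1 above the upper dashed line to Myh3, Tnnc2 and Atp2a1 far below the lower one.

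Myosin, the motor of the thick filament, changed its make-up almost completely between the organs. Myh7, the beta or slow heavy chain, was 1253 FPKM in WT heart and 15.6 FPKM in WT hindlimb, and Myh6, the alpha heavy chain, was 332 and 0.44 FPKM. Myh3, the embryonic skeletal heavy chain, was 0.40 FPKM in WT heart and 163 FPKM in WT hindlimb, and Myh8, the perinatal form, was 0.29 and 43.8 FPKM. Of the summed FPKM of 8 sarcomeric heavy chains, Myh7 made up 77.2% and Myh6 20.5% in WT heart, whereas Myh3 made up 70.8%, Myh8 19.0% and Myh7 6.76% in WT hindlimb. The adult fast heavy chains were low, with Myh1 at 0.22 FPKM in WT heart and 1.34 FPKM in WT hindlimb, and with Myh2 and Myh4 listed at 0 in WT heart and below 1 FPKM in WT hindlimb. Heavy chain genes are similar in sequence, and the labels do not say how reads that fit several of them were assigned.

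The light chains that sit on the myosin neck switched in the same sense, with 1 embryonic form in common. Of the regulatory light chains, Mylpf made up 99.3% in WT hindlimb, while in WT heart Myl2 made up 85.4% and Myl7, the atrial form, 14.6%. Of the essential light chains, Myl3, the ventricular and slow form, was 3109 FPKM in WT heart and 9.42 FPKM in WT hindlimb. Myl1, the fast skeletal form, was 112 and 318 FPKM, so its ratio of -1.29 stayed within 4-fold. Myl4, known as the atrial and embryonic form, was 2801 FPKM in WT heart and 214 FPKM in WT hindlimb and made up 46.5% and 37.0% of the essential light chains of the 2 organs. Mybpc3, the cardiac myosin binding protein C, was 605 FPKM in WT heart and 0.04 FPKM in WT hindlimb, while Mybpc1, the slow skeletal form, was 3.22 and 35.7 FPKM. Mylk3, a kinase that acts on the cardiac light chain, was 92.1 and 0.47 FPKM, and its skeletal partner Mylk2 was near 0.1 FPKM in both organs.

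On the thin filament the separation was less complete, and the limb held several members labelled cardiac at high levels. Troponin T anchors the troponin complex to tropomyosin. In WT hindlimb it was 52.8% Tnnt1, the slow skeletal form, 22.2% Tnnt2 and otherwise Tnnt3, the fast form, and in WT heart it was 89.2% Tnnt2 and 10.7% Tnnt1. Troponin I, the inhibitory subunit, was mostly the slow skeletal gene Tnni1 in both organs, at 68.9% in WT heart and 72.1% in WT hindlimb. Tnni1 itself was 2531 FPKM in WT heart and 187 FPKM in WT hindlimb, so it was 4-fold or more higher in heart. Tnni3, the cardiac form, was 1094 and 2.42 FPKM, and Tnni2, the fast form, was 47.3 and 70.1 FPKM, a centred ratio of -0.35.

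For troponin C, the calcium sensor, and for sarcomeric actin the cardiac form was the more abundant in the limb as well. Tnnc1, the cardiac and slow form, was 2361 FPKM in WT heart and 292 FPKM in WT hindlimb, where it made up 64.9% of troponin C. Tnnc2, the fast form, was 0.60 FPKM in WT heart and 158 FPKM in WT hindlimb. Actc1, cardiac actin, was 6315 and 420 FPKM and made up 62.5% of the 2 sarcomeric actins in WT hindlimb. Acta1, skeletal actin, was 97.7 FPKM in WT heart and 252 FPKM in WT hindlimb, a centred ratio of -1.15. The actin genes are similar in sequence, and the labels do not say how reads that fit both Actc1 and Acta1 were assigned. The split of reads between them is uncertain to that extent. Of the other filament proteins, Tpm1, 1 of the tropomyosins, was 2902 and 353 FPKM, and Neb, the giant thin filament protein nebulin, was 0.95 and 20.5 FPKM. Its smaller cardiac relative Nebl was 157 and 12.4 FPKM. Actn2, the alpha-actinin of Z-discs, was 400 FPKM in WT heart and 62.5 FPKM in WT hindlimb, where it still made up 92.0% of its pair with Actn3.

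**Figure D3:**
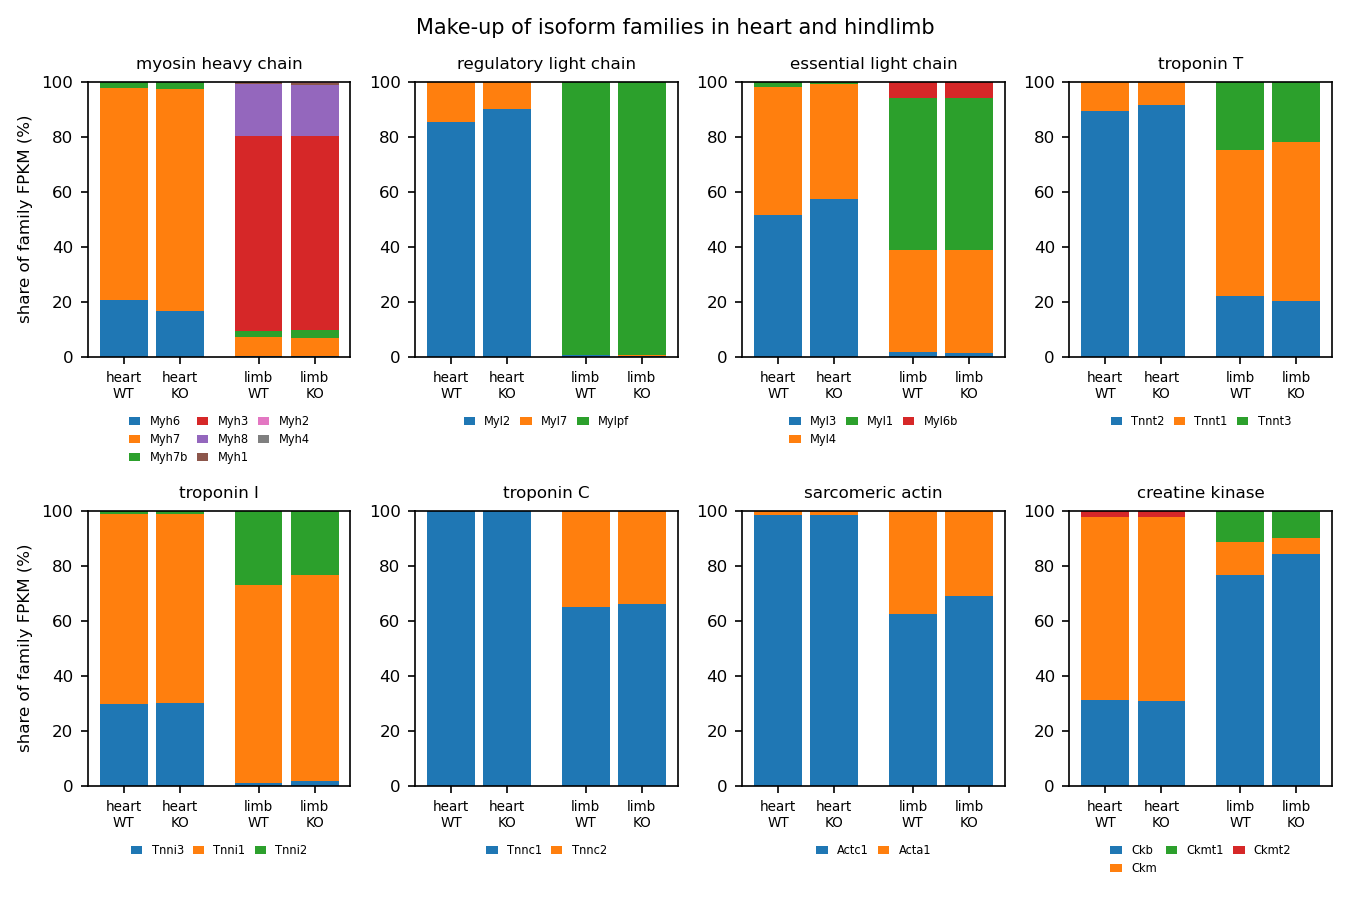
Share of the summed FPKM (vertical axis, %) taken by each member of 8 families in heart and hindlimb (limb) of WT and KO embryos, each bar being 1 pooled value per gene. The heart and limb bars differ most for myosin heavy chains and regulatory light chains, and least for troponin I, where Tnni1 takes 68.9% and 72.1% in WT.

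Promoters of 6 members are printed: both members of the troponin C and actin families, whose cardiac form was the more abundant in both organs, and Pln and Mylpf, each far higher in 1 organ. RefSeq windows (GRCm38.p6) of 300 bases, from 250 before a gene's start to 50 after it, were matched to 45 of the 56 paired genes. Capitals mark 4 motifs known in muscle promoters, searched on both strands: the MEF2 motif, the CArG box that serum response factor binds, the MCAT motif CATTCC of TEAD factors, and CAGCTG, an E-box form that myogenic factors bind. The windows are chr14:31208062-31208361 (plus strand) for Tnnc1, chr2:164779685-164779984 (minus) for Tnnc2, chr2:114052826-114053125 (minus) for Actc1, chr8:123894726-123895025 (minus) for Acta1, chr10:53337436-53337735 (plus) for Pln and chr7:127211358-127211657 (plus) for Mylpf. The RefSeq start lies 233 bases from the gene's outer end in the deposited tables for Tnnc2, 673 bases for Actc1, 39 bases for Acta1 and at the same base for the other genes.
Tnnc1: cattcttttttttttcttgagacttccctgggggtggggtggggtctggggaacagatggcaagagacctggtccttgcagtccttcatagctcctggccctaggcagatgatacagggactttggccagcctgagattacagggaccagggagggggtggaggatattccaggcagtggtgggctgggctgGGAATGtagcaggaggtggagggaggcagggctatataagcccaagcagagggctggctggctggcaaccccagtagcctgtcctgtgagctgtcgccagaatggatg
Tnnc2: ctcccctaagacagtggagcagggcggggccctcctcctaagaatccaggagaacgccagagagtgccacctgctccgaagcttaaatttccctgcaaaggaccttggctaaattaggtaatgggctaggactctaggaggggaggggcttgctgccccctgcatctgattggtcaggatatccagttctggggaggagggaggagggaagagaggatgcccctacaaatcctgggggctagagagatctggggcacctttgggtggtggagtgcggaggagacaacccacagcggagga
Actc1: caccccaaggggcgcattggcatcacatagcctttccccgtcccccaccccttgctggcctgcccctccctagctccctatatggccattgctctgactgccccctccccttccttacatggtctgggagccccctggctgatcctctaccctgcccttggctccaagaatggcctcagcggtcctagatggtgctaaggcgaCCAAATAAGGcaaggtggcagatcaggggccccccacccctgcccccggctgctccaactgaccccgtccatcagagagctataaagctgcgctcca
Acta1: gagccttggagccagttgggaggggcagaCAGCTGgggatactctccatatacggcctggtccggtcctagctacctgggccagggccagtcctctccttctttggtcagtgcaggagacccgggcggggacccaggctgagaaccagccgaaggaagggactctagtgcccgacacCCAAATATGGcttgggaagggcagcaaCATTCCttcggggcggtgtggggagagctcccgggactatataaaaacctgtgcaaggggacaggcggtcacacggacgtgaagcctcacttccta
Pln: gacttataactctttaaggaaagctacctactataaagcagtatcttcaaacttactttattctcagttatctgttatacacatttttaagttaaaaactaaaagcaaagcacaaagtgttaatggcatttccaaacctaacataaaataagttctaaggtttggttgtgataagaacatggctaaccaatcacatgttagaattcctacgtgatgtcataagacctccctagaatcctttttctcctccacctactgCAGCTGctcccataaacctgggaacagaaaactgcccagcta
Mylpf: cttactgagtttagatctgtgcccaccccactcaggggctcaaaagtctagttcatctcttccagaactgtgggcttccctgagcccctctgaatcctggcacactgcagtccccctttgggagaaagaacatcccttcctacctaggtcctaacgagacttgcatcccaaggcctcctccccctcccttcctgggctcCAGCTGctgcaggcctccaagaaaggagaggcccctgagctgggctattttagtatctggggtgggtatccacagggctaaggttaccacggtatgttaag

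Both actin windows hold a CArG box, which begins 47 bases before the start in Actc1 and 73 bases before it in Acta1. A CArG box was present in 1.63% of all 32851 windows. The Mylpf window holds CAGCTG 51 bases before the start, and the Pln window holds it just after the start. The Tnnc1 window holds the MCAT motif 58 bases before the start, and the Tnnc2 window holds none of the 4 motifs. Among the 28 paired genes that were higher in heart, 26 had windows, 36 in all because some genes have several overlapping starts. A gene with several windows can thus count more than once. For example, the windows with a CArG box belong to Actc1, Fhl2, Myl3 and Nebl only. Of these 36 windows, 5 held a CArG box, 4 the MEF2 motif (3.19% of all windows), 10 the MCAT motif (14.7%), 13 CAGCTG (16.3%) and 14 the GATA motif GATAA (25.4%). The 8 windows of the 10 paired genes higher in hindlimb held these motifs 0, 1, 1, 4 and 0 times in the same order. A match is a description of letters and was not tested as a binding site.

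Calcium handling separated along the release and uptake steps. Ryr2, the cardiac release channel, was 20.05 FPKM in WT heart and 0.32 FPKM in WT hindlimb, and Ryr1, the skeletal channel, was 0.05 and 4.02 FPKM. For the SERCA pump, Atp2a1, the fast skeletal form, was 0.28 FPKM in WT heart and 46.0 FPKM in WT hindlimb. Its slow and cardiac partner Atp2a2 was 381 and 62.5 FPKM, and so made up 57.6% of the pair in the limb. Pln, phospholamban, which restrains the cardiac pump, was 567 FPKM in WT heart and 0.03 FPKM in WT hindlimb, 1 of the highest ratios of all genes. Sln, sarcolipin, which acts on the pump in skeletal muscle and atria, was 21.7 and 56.6 FPKM. Both calsequestrins, the calcium buffers of the reticulum, were higher in heart: Casq2, the cardiac form, was 202 and 33.0 FPKM, and Casq1, the skeletal form, was 101 and 6.71 FPKM. Casq1 overlaps Gm17224 on the opposite strand, and the library kit does not mark strand, so overlapping reads cannot be told apart by strand. In all, 21 of the 56 paired genes overlap the span of another gene, with Tnni3 and Dnaaf3 on the same strand. Whether these overlaps include exons was not tested.

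Membrane channels varied in level and in how far they differed between the organs. Cacna1s, the skeletal voltage sensor, was 0.19 FPKM in WT heart and 4.11 FPKM in WT hindlimb. Cacna1c, the cardiac L-type channel, was 19.6 and 5.63 FPKM, a ratio of 2.00 that fell just short of 4-fold before rounding. Slc8a1, the sodium-calcium exchanger that carries calcium out of heart cells, was 206 and 6.73 FPKM. On the fixed list of further skeletal channels and synapse genes, 7 of 12 were 4-fold or more higher in hindlimb, against 7.14% of all genes tested, and 0 in heart, with a median of -3.51. Examples are the acetylcholine receptor subunit Chrna1, at 0.04 and 6.72 FPKM, and Stac3, which links the voltage sensor to release, at 1.18 and 18.3 FPKM. The adult receptor subunit Chrne stayed under 0.1 FPKM in both organs, whereas the fetal subunit Chrng was 0.53 FPKM in WT heart and 11.2 FPKM in WT hindlimb. On the list of further cardiac channels and junctions, 5 of 12 were higher in heart, against 5.28% of all genes tested, and 1 in hindlimb. Kcnj5, a potassium channel of atrial cells, was 18.4 and 0.02 FPKM, while the T-type calcium channel Cacna1g, at 11.5 and 59.5 FPKM, was the member higher in hindlimb.

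Creatine kinase, which buffers ATP, went against the labels of its pair, in which Ckb stood as the cardiac and Ckm as the skeletal member. Ckm, the muscle form (chr7:19411094-19421583, plus strand), was 223 FPKM in WT heart and 6.90 FPKM in WT hindlimb, 37.1-fold higher in heart. Ckb, the brain form that embryonic heart also uses, was 104 and 43.6 FPKM, a ratio of 1.48. So Ckm made up 66.5% of 4 creatine kinases in WT heart, and Ckb made up 76.5% in WT hindlimb, with 84.3% in KO hindlimb. Ckm overlaps A930016O22Rik on the opposite strand. The mitochondrial forms split too, with Ckmt2, the sarcomeric one, at 7.57 and 0.18 FPKM, and Ckmt1, the ubiquitous one, at 0.32 and 6.29 FPKM. Of the 16 genes of muscle energy use, 13 were 4-fold or more higher in heart, against 5.28% of all genes tested. The 2 that were higher in hindlimb, against 7.14% of all genes tested, were Ckmt1 and Ampd1, the muscle AMP deaminase (0.11 and 4.17 FPKM). Mb, myoglobin, which stores oxygen, was 580 FPKM in WT heart and 7.04 FPKM in WT hindlimb. Cox7a1, a muscle subunit of cytochrome oxidase, was 247 and 2.49 FPKM.

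Genes of sarcomere and Z-disc that both muscles use, with no cardiac or skeletal partner on the list, were also higher in heart. Of 24, 19 were 4-fold or more higher in heart, against 5.28% of all genes tested, 0 in hindlimb, and the list median was 3.44, or 10.8-fold (3.68 in the KO organs). Ttn, titin, the molecular spring, was 29.9 FPKM in WT heart and 3.72 FPKM in WT hindlimb. Des, desmin, the muscle intermediate filament, was 231 and 41.2 FPKM, and Csrp3, a Z-disc LIM protein, was 957 and 25.4 FPKM. Hspb7, a small heat shock protein of heart muscle, lay far above the rest of the list, at 396 and 1.15 FPKM. Myom2, an M-band protein, was the member most towards hindlimb, at 5.99 and 12.6 FPKM. Of 12 dystrophin complex genes, which tie the cytoskeleton to the matrix, 4 were higher in heart (5.28% of all genes), among them Sgca and Cav3, and 0 in hindlimb, and Dmd itself was 15.7 and 13.0 FPKM.

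Set against the median of that shared sarcomere list instead of the median of all genes, the ratios of the pairs moved towards hindlimb, as did those of all genes. Relative to it, 12 of 28 cardiac members stayed 4-fold or more higher in heart, among them Myh6, Myh7, Myl3, Myl2, Mybpc3, Tnnt2, Tnni3, Pln and Ryr2. The other 16, among them Tnnc1 (-0.20), Actc1 (0.69) and Atp2a2 (-0.61), lay within 4-fold of it. Of the 24 skeletal members at 1 FPKM or more, 20 were 4-fold or more higher in hindlimb relative to the list. The other members, Myoz1, Lmod3, Ckm and Casq1, lay within 4-fold. Of all 14390 genes tested, 13101 were 4-fold or more higher in hindlimb relative to the list and 76 in heart. The count of skeletal members is thus no excess over all genes. The amount of striated muscle in each sample was not measured, and no centring takes its place.

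Transcription factors separated by lineage. Of 14 factors of heart development, 11 were 4-fold or more higher in heart, against 5.28% of all genes tested, and 0 in hindlimb, with a median ratio of 5.13. Nkx2-5, an early heart factor, was 61.2 FPKM in WT heart and 0.01 FPKM in WT hindlimb, and Gata4 was 116 and 0.05 FPKM. Tbx18, Hand2 and Isl1 were the members within 4-fold, and Hand2, also a limb factor, was 38.9 and 17.2 FPKM. Of 12 myogenic factors, 10 were 4-fold or more higher in hindlimb, against 7.14% of all genes tested, and 0 in heart, with a median of -4.21. Myod1, which commits cells to skeletal muscle, was 0.08 FPKM in WT heart and 22.04 FPKM in WT hindlimb, and Myog, which drives their fusion and differentiation, was 0.53 and 93.5 FPKM. The 8 factors known to act in both muscles stayed within 4-fold, with ratios from -0.75 to 1.74. So did most genes, since only 5.28% and 7.14% of all genes tested were called. Within 2-fold were 4 of the 8, against 72.8% of all genes tested. Of the 8, Mef2c was 18.4 and 34.6 FPKM and Srf, serum response factor, was 38.6 and 15.6 FPKM.

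**Figure D4:**
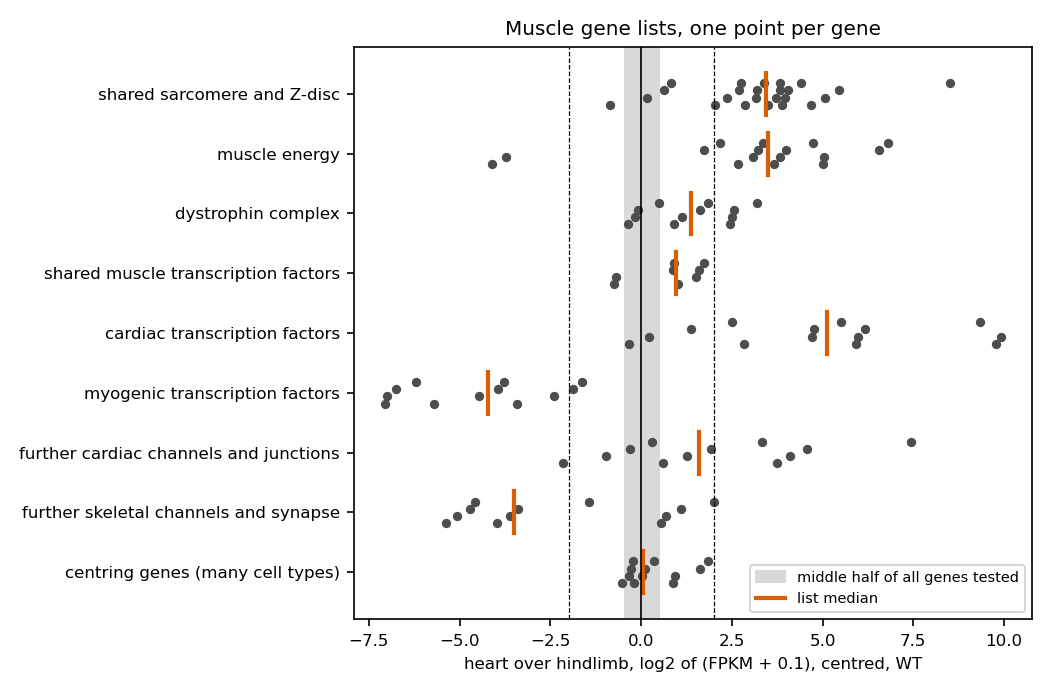
Centred log2 ratio of heart over hindlimb in WT (horizontal axis) for each gene of 9 lists (1 point per gene, genes below 1 FPKM included, vertical scatter within a row only separates points), with the list median (orange), the range from the first to the third quartile of all genes tested (grey, -0.46 to 0.50) and dashed lines at 4-fold. The shared sarcomere and energy lists lie mostly beyond 4-fold towards heart, the myogenic factors beyond 4-fold towards hindlimb, and the shared muscle factors between the dashed lines.

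Genes that both muscles held at similar levels were sought with liver and lung as the contrast. A gene counted as shared at 5 FPKM or more in both organs, within 4-fold between them, and at least 8-fold above WT liver and KO lung. Lung of KO embryos was used because WT lung held heart transcripts, with Myl7 at 342 FPKM in WT lung and 13.6 FPKM in KO lung. The list depends on this choice, and with WT lung as the contrast 14 genes met the rule. Sln, for example, was 19.5 FPKM in WT lung and 0.13 FPKM in KO lung. With KO lung, 18 genes met the rule, 10 of them with a centred ratio above 0 and 8 with one below 0. By the rule itself no gene among them reaches the 4-fold that is named higher. Of the 16 that are above 0 in both KO organs, 15 were within 4-fold there too. The most abundant, Tnnt1, was 522 FPKM in WT heart and 220 FPKM in WT hindlimb, followed by Myl1, Acta1 and Tnni2, so 4 contractile genes named for skeletal muscle lead the list. Itgb1bp2, encoding the muscle chaperone melusin, was 40.1 and 28.4 FPKM. Klhl41, which stabilises nebulin, was 17.5 and 27.6 FPKM, and Dhrs7c, an enzyme of the sarcoplasmic reticulum, was 8.21 and 8.30 FPKM. Rapsn, known for clustering acetylcholine receptors at the synapse, was 12.5 FPKM in WT heart and 9.32 FPKM in WT hindlimb. Sln, Thbs4, Dpt, Tbx18, Lmod3, Myom2 and 3 gene models (Gm3625, Gm10664 and Gm10491) were also among them. Gm3625 is listed at 0 in KO hindlimb and Gm10491 at 0 in both KO organs. Dpt and Tbx18 are also known from connective tissue and epicardium, so a place in this list does not make a gene one of muscle cells.

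The genes with the largest ratios, among those at 10 FPKM or more in the higher organ, were partly muscle genes and partly short gene models. On the heart side Nppa, the atrial natriuretic peptide, was 770 FPKM in WT heart and is listed at 0 in WT hindlimb, Nppb was 190 and 0.05 FPKM, and Myl7 was 1724 and 0.22 FPKM. Pln, Mybpc3 and Myl2 were among the same 10. The other 4 were Gm17364, Gm11084, Gm13054 and Gm17428. Gm17364 spans 175 bases and is listed at 991 FPKM in WT heart and at 0 in KO heart, and Gm11084 is likewise at 426 FPKM in WT heart and at 0 in KO heart. Gm13054 overlaps Nppa, and Gm17428 overlaps Myh7, each on the opposite strand. On the hindlimb side the 10 held no sarcomere gene: Ibsp (bone), Krtdap and Krt1 (epidermis), Kera, Hoxa10, Hoxa11os, Agtr2 and the models Gm16499, Gm17604 and Gm17590. Gm17590 changed sides in the KO organs, with a ratio of -8.79 in WT and 9.49 in KO.

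The study's own comparison was KO against WT within an organ, and there several muscle genes of the limb were lower in KO. In the authors' deposited table for hindlimb, 9 of 51 tested paired genes were lower in KO at q under 0.05 and 0 were higher, against 0.351% and 0.272% of all genes tested. Those 9 were Myh7, Tnnt2, Actn2, Ankrd1, Myh8, Myl1, Mylpf, Tnni2 and Ckm, of both cardiac and skeletal kind. Ckm fell from 6.90 to 2.75 FPKM and Mylpf from 642 to 439 FPKM (q = 0.0123 for each in the authors' deposited table). Of the 51, 47 had lower values in KO hindlimb, with a median log2 difference of -0.39, where all genes tested had a median of 0.01. Of the 23 shared sarcomere genes tested, Des, Ldb3 and Nrap were lower in the authors' deposited table, against 0.351% of all genes tested, and 23 of 23 had lower values. The share of all genes with lower values was not computed, only their median of 0.01. For calls on the marker lists that follow, the shares over all genes tested are the same 0.351% lower and 0.272% higher. The epidermal markers had lower values in KO hindlimb in 12 of 12 cases too, with Krt10, Krt77 and Dsp lower at q under 0.05 in the authors' deposited table, and of the bone markers Ibsp, Spp1 and Alpl were lower and Sox9 higher. Of 10 erythroid markers, the authors' deposited table has 4 as higher in KO hindlimb (Hba-a1, Hba-a2, Hbb-y and Hbb-bh1). Of 12 markers of limb and tendon mesenchyme, Tnmd was lower in the authors' deposited table, and the list's median log2 difference was 0.33. The part of these tissues in the muscle result was not tested. The WT and KO hindlimbs came only partly from the same litters.

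In heart, the authors' deposited table had 1 of 50 tested paired genes lower in KO, against 0.156% of all genes tested, and 0 higher, against 0.0717%. That gene was Myl1, 112 FPKM in WT and 65.8 FPKM in KO heart (q = 0.0256 in the authors' deposited table). Lower values were seen for 27 of the 50, and the median log2 difference was -0.04. Myl1 was thus lower in the KO form of both organs, with q = 0.0355 in hindlimb in the authors' deposited table. Whether the effect of genotype differed between the organs was not tested. Of the summed heavy chain FPKM, Myh3 made up 70.8% in both WT and KO hindlimb, and Myh6 made up 20.5% in WT heart and 16.4% in KO heart, shares that have no test.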

How the data were processed

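PolyA RNA of embryonic organs was sequenced after preparation with a TruSeq RNA v2 kit, per the labels. CASAVA 1.8.2 and TopHat2 are named in the submitters' processing notes, with mm10 as the build. The authors deposited, per the file headers, 1 FPKM value per gene and genotype for each organ. The p-value and q-value of KO against WT were deposited by the authors too, and their q-value under 0.05 was taken as a call. Neither the program behind these values nor read depth is given in the sources used here, so no interval is stated.

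The planned tests needed a value per library and were replaced by ratios without a test. From the FPKM, log2((heart + 0.1)/(hindlimb + 0.1)) was computed over genes at 1 FPKM or more in either organ, 1 row per gene, and centred on its median. A gene at 4-fold or more was called. The calculation was tested on simulated data. Samples were grouped by genotype and tissue labels.

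Any member of the families and lists could be named, as could the 10 highest and 10 lowest ratios among genes at 10 FPKM or more in the higher organ, and the genes both muscles share (the rule ranked the first 15, and Gm10491 and Myom2 were named after their values were seen). Members and lists were chosen with earlier results of these data known. Python 3.11.15, pandas 2.3.3, numpy 2.4.6 and matplotlib 3.10.9 were used. Alternatives changed the pseudocount, the filter, the centring, the genotype and the rule for shared genes. Protein sequences were not used here, and some members are counted but not reported here by name.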

Additional observations from a re-analysis of the deposited data

How the results depend on the processing

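No paired analysis was possible because the tables hold 1 pooled value per organ and genotype, with no replicate number, and the WT hearts and hindlimbs share no embryo. Leaving out a replicate was not run for the same reason. Over 14 alternatives, 70 values of the comparisons stayed within 1.5 times of those reported (or within the same fold on the log2 scale) and 16 moved. The cardiac member had the higher ratio in 26 of 28 families with either other pseudocount, with rescaling and with the KO values. Changes of the filter or the centring shift both members of a family alike. They could not alter that count, though it is among the 70 values under them too. A pseudocount of 1 FPKM gave 480 genes higher in heart, 484 higher in hindlimb and 11 shared genes. With no filter 16697 genes lay within 2-fold, and with a filter at 5 FPKM 558 were higher in hindlimb. Rescaling each organ to the same sum gave 36 shared genes. Asking for 4-fold above liver and lung gave 39, for 20 FPKM in both organs 8, and for levels within 2-fold of each other 10. Centring on the shared sarcomere list sets that list's median to 0 by construction. It gave 76 genes higher in heart, 13101 higher in hindlimb, 399 within 2-fold, 70 shared genes, 12 cardiac members higher in heart and 20 skeletal members higher in hindlimb. The log2 ratio then turned to -0.20 for Tnnc1, -0.18 for Tpm1, -0.54 for Actn2, -0.22 for Myoz2, -0.61 for Atp2a2, -0.61 for Casq2 and -0.027 for Cacnb2. For the other changes the cause was not tested. Over single paired genes, 462 values stayed, 91 moved and 7 reversed. With no depth and no spread, ratios of genes near 0.1 FPKM in an organ have no known precision.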

Other observations

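Some members named for muscle were also found outside it. Mylk3, the cardiac light chain kinase, was 60.8 FPKM in WT liver against 92.1 FPKM in WT heart and 0.47 FPKM in WT hindlimb. Tmod1, which caps thin filaments and is also known from red cells, was 31.0 FPKM in WT liver and 104 FPKM in WT heart. Mylk3 overlaps AA672651 and Tmod1 overlaps Tstd2, each on the opposite strand. The part of these overlapping genes in the values was not tested. WT lung held cardiac transcripts at levels above those of KO lung, with Actc1 at 169 and 27.97 FPKM and Myh6 at 34.9 and 1.65 FPKM. Hbb-y, an embryonic globin, was 5004 FPKM in WT heart and 2760 FPKM in KO heart, and 385 FPKM in WT hindlimb and 782 FPKM in KO hindlimb. Spp1, osteopontin, was 4.93 FPKM in WT heart and 14.6 FPKM in KO heart, and 35.3 FPKM in WT hindlimb and 7.96 FPKM in KO hindlimb, so its centred ratio was -2.60 in WT and 1.13 in KO. Whether the effect of genotype differs between the organs was not tested.

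Of the members listed as skeletal channel or synapse genes, Dok7, which acts with Musk at the synapse, was 6.60 FPKM in WT heart and 4.71 FPKM in WT hindlimb, while Musk was 0.02 and 3.32 FPKM. Of the fixed cardiac factors, Tbx5, also a factor of the forelimb, was 12.05 FPKM in WT heart and 1.86 FPKM in WT hindlimb.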
